A study of Homo sapiens with 12 samples.

Results

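The pentose phosphate pathway enzymes described here are the products of 9 genes, taken by symbol from the 58233 genes of the deposited tables. They are PGLS, PGD, H6PD, RPIA, RPE, TKT, TALDO1, PRPS1 and PRPS2, and each symbol stood for 1 gene. Their transcripts were measured by RNA sequencing of total RNA in 12 libraries of K562, an established human chronic myeloid leukaemia line with erythroid features. The first comparison set 3 clones whose mutant ASXL1 allele had been knocked out with CRISPR/Cas9 against 3 parental clones, which keep that allele. The others set 2 pools with a FOXK1 guide (sgFOXK1) and 2 pools with a FOXK2 guide (sgFOXK2) against the same 2 pools with the SCR guide (sgSCR). ASXL1 encodes a chromatin protein, and FOXK1 and FOXK2 encode forkhead transcription factors. A pool can hold edited and unedited cells side by side, and the labels do not say whether clones or pools came from separate edits or cultures, so the spread between libraries may be technical. All cells were grown in RPMI-1640 medium with serum.

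The pathway branches off glycolysis at glucose phosphate. Its oxidative branch passes through a lactonase and a decarboxylating dehydrogenase and yields NADPH, the reductant used for lipid synthesis and for keeping glutathione reduced. Its non-oxidative branch interconverts pentose and hexose phosphates, so that ribose phosphate can be made or returned to glycolysis as the cell requires. PRPP synthetase then turns ribose phosphate into phosphoribosyl pyrophosphate (PRPP), the sugar donor of purine, pyrimidine and NAD synthesis. Dividing leukaemia cells are known to draw on all of these outputs.

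All 9 genes lie on GRCh38 chromosomes and are annotated as protein coding in GENCODE 29. PGLS (ENSG00000130313, chromosome 19, 17511629 to 17521288) encodes the lactonase of the oxidative branch. PGD (ENSG00000142657, chromosome 1, 10398592 to 10420144) encodes phosphogluconate dehydrogenase, which releases NADPH, carbon dioxide and ribulose phosphate. H6PD (ENSG00000049239, chromosome 1, 9234775 to 9271337) encodes a bifunctional dehydrogenase and lactonase that makes NADPH inside the endoplasmic reticulum. RPIA (ENSG00000153574, chromosome 2, 88691644 to 88750935) and RPE (ENSG00000197713, chromosome 2, 210002565 to 210022259) encode the isomerase and the epimerase of the pentose phosphates. TKT (ENSG00000163931, chromosome 3, 53224707 to 53256052, minus strand) encodes transketolase and TALDO1 (ENSG00000177156, chromosome 11, 747329 to 765024) transaldolase, the enzymes that exchange carbon units between sugars. PRPS1 (ENSG00000147224, chromosome X, 107628424 to 107651026) and PRPS2 (ENSG00000101911, chromosome X, 12791355 to 12824222) encode catalytic subunits of PRPP synthetase.

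Values are FPKM as the authors deposited them, a unit that corrects fragments for the length of the transcript and the size of the library. Differences are of log2(FPKM + 1), knockout minus control, with the standard error (SE) and the Benjamini-Hochberg adjusted p of limma, fitted across all tested genes and two-sided. A gene was called at an adjusted p under 0.05. All genes together summed to between 824692 and 975657 FPKM in a library, and between 13348 and 13681 genes reached 1 FPKM. That sum went with the group in the first comparison. It ran from 824692 to 839261 FPKM in the mutant ASXL1 knockout clones and from 899097 to 961495 FPKM in the parental clones. The calls with median-ratio scaling are given below. Read depth is unknown, so no counting interval is given. In bulk RNA, fewer cells of a type and less RNA per cell cannot be told apart. The 8 erythroid markers, among them GATA1, KLF1, EPOR and the globin genes HBG1, HBG2 and HBE1, were at 1 FPKM or more in every library. Among lymphoid, adherent and granulocyte or monocyte markers, LYZ (2.99 to 5.53 FPKM) and EPCAM (65.5 to 104 FPKM) also reached that level in every library, and MS4A1, KRT5 and ELANE were listed at 0 throughout. Among the targeted genes, ASXL1 had 32.0, 26.9 and 29.2 FPKM in the mutant ASXL1 knockout clones and 49.7, 58.5 and 39.8 FPKM in the parental clones (adjusted p = 0.0142). In the authors' deposited table the log2 fold change of ASXL1 is -0.08 (adjusted p = 0.436), and FPKM of a whole gene do not separate its mutant from its other alleles. FOXK1 was at 5.83 ± 0.345 FPKM in the sgFOXK1 pools and 6.25 ± 0.0184 in the sgSCR pools (SD, n = 2 each), and this difference did not pass (adjusted p = 0.648). FOXK2 was at 26.5 ± 1.45 FPKM in the sgFOXK2 pools and 41.7 ± 1.34 in the sgSCR pools (adjusted p = 0.0445). The FOXK1 transcript thus does not by itself show the edit in the sgFOXK1 pools, although the authors' deposited table gives it a log2 fold change of -0.26 (adjusted p = 0.0189).

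The promoters of the 4 genes called below are shown as the 250 bases before each RefSeq start (GRCh38.p14), because these are the members that passed in any comparison. Capitals mark the core of the antioxidant response element, TGACNNNGC on either strand, which the oxidative stress factor NRF2 is known to bind. The windows are chr19:17511399-17511648 for PGLS, chr1:10398814-10399063 for PGD, chr3:53256023-53256272 (minus strand) for TKT and chr2:210002388-210002637 for RPE, read in the direction of transcription.
PGLS: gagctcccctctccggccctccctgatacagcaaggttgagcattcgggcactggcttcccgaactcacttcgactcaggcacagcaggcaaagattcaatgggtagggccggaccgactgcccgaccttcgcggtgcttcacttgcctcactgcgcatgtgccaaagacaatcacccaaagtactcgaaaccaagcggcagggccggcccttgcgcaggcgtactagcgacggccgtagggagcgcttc
PGD: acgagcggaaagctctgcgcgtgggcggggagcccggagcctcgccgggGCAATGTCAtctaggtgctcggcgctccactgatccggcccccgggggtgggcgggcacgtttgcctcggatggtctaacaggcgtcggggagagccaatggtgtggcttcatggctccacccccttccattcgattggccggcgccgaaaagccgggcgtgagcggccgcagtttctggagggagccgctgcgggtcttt
TKT: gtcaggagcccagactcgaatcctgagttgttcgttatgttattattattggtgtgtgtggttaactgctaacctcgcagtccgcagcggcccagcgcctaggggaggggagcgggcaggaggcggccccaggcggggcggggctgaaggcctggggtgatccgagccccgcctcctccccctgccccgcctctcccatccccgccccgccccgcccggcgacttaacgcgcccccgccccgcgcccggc
RPE: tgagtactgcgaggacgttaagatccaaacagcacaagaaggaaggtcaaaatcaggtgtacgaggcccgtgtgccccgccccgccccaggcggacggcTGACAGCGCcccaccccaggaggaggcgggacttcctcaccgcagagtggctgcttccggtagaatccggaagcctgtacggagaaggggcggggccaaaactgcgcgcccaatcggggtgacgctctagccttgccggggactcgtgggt
The core stood in PGD, on the minus strand at bases -201 to -193 from the start, and in RPE, on the plus strand at -151 to -143. Of the 9 windows 2 held it, beside 10.9% of 35116 RefSeq promoters of the same length. The forkhead letters GTAAACA, the ATF4 letters TGATGCAA and the E-box CACGTG, each read on both strands, stood in 0 of the 9 windows, beside 2.98%, 0.772% and 6.34% of all promoters. PGD fell and RPE rose in the mutant ASXL1 knockout, and a link between the core and these differences was not tested. A match is a description of these letters and does not show a bound site. The windows ran from 44.8% GC in H6PD to 78.4% in TALDO1, against a median of 58% over all promoters. Only 1 start per gene was used. The windows of H6PD (chr1:9239597-9239846) and PGD lie inside the genes as annotated in GENCODE 29, so other starts of these genes were not searched.

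The levels of the 9 transcripts spanned a wide range that was nearly fixed in order. TALDO1 had a median of 341 FPKM over the 12 libraries, TKT 292 and PGD 182. PRPS1 followed with 73.4, PGLS with 51.2, RPIA with 37.0, RPE with 33.9 and PRPS2 with 27.0 FPKM, and H6PD was at 0.978. Among genes with a median of 1 FPKM or more, TALDO1 stood above 97.8% and PRPS2 above 68.8%. TALDO1 exceeded TKT, TKT exceeded PGD, PGD exceeded PRPS1 and PRPS2 exceeded H6PD in 12 of 12 libraries. The neighbours PRPS1 and PGLS, PGLS and RPIA, and RPE and PRPS2 kept their order in 11 of 12 libraries. The order of RPIA and RPE went with the groups: RPIA was the higher in all 6 pools, in 2 of the 3 parental clones and in 0 of the 3 mutant ASXL1 knockout clones.

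**Figure D1:**
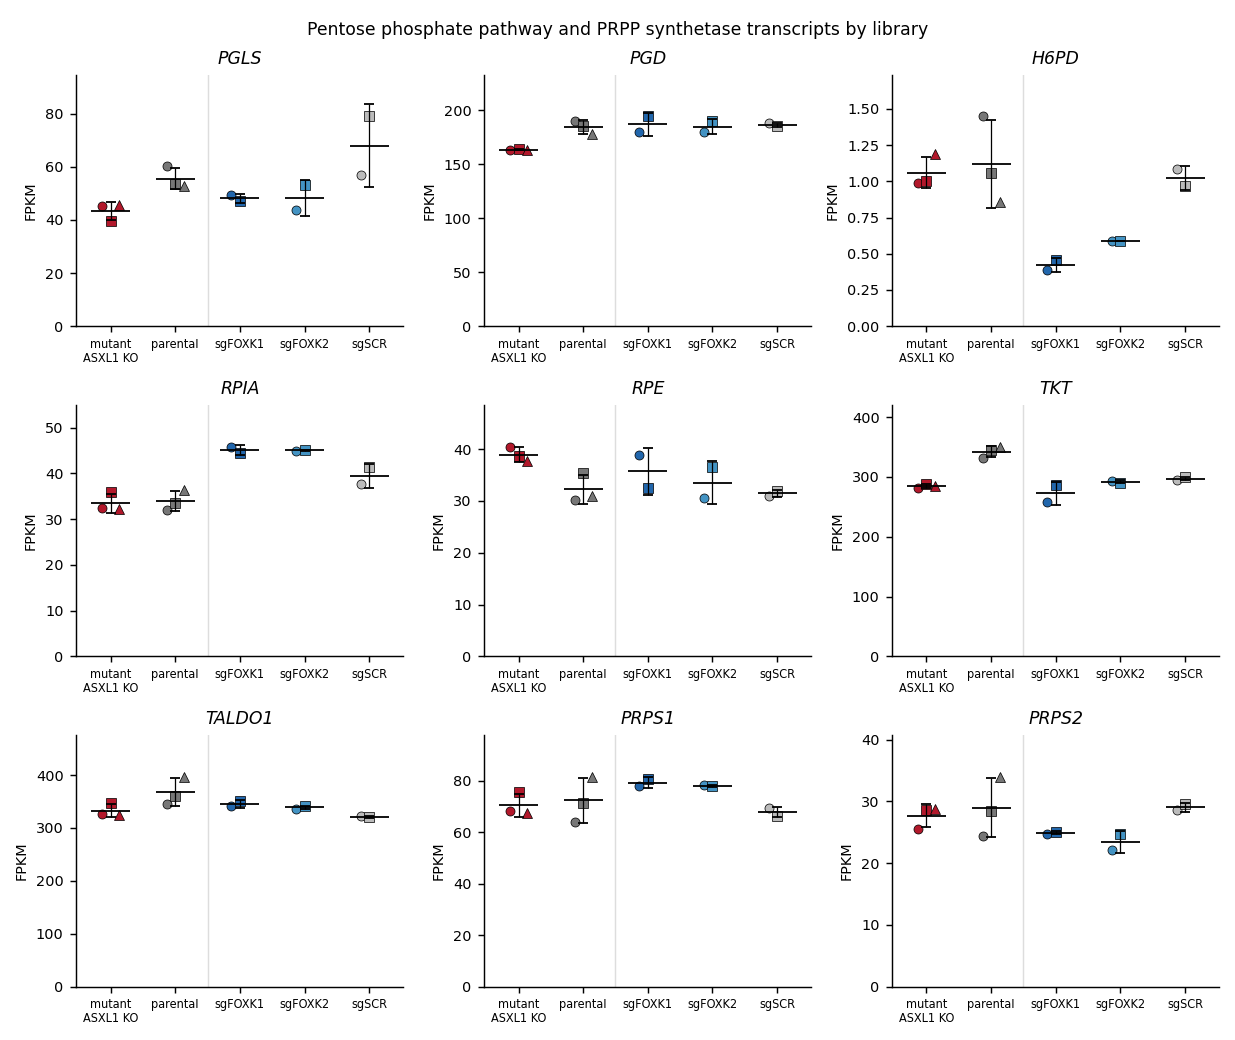
FPKM of each gene (vertical axes, from 0) in the 12 libraries, grouped along the horizontal axes, with circles, squares and triangles for replicates 1, 2 and 3. Lines are means and bars SD over 3 clones or 2 pools. The mutant ASXL1 knockout clones lie apart from the parental clones for PGLS, PGD, RPE and TKT, and H6PD is at 0.388 to 0.589 in the sgFOXK1 and sgFOXK2 pools.

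The transcripts differed in how much they varied. TALDO1, PGD, PRPS1 and TKT had coefficients of variation of 6.13%, 6.17%, 8.31% and 9.16% over the 12 libraries. RPE had 10.9%, PRPS2 11.8%, RPIA 14.4% and PGLS 19.8%. H6PD had 36.0%, and its highest library held 3.73 times its lowest, against 1.19 times for PGD. The sum of the 4 non-oxidative branch transcripts ran from 679.5 to 709.7 FPKM in the mutant ASXL1 knockout clones and from 740.2 to 815 in the parental clones. The same sum ran from 684 to 713 in the sgFOXK1 pools, from 706 to 713 in the sgFOXK2 pools and from 687 to 692 in the sgSCR pools. The sum of PGLS, PGD and H6PD ran from 204 to 209.8 FPKM in the mutant ASXL1 knockout clones and from 231 to 252 in the parental clones. These sums are dominated by TALDO1, TKT and PGD, and no test was made on them.

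The mutant ASXL1 knockout clones were compared with the parental clones to ask which transcripts follow the mutant allele. Of the 9 genes 4 were called: TKT, PGD and PGLS fell and RPE rose. The falls were small, to between 0.79 and 0.89 of the parental level on the scale of FPKM + 1. RPIA, TALDO1, PRPS1, PRPS2 and H6PD did not pass. Across all 13597 tested genes 22.4% were called, 7.91% higher and 14.4% lower, 37.7% had an unadjusted p under 0.05, and the groups did not overlap in 42.9%. The groups did not overlap for the 4 called members either, and the median difference was -0.05 over the 9 members and -0.06 over all tested genes. GATA1, KLF1 and EPOR, 3 of the 8 erythroid markers, also fell in this comparison (GATA1 by 0.44 on the log2 scale). The summed erythroid markers ran from 9048 to 13119 FPKM in the mutant ASXL1 knockout clones and from 10802 to 19846 in the parental clones. HBG2 alone gave between 8562 and 12545 FPKM of this sum in the mutant ASXL1 knockout clones and between 10200 and 19180 FPKM in the parental clones, and it did not pass (log2 -0.47, adjusted p = 0.195). The adherent markers, mainly EPCAM, summed to between 90.6 and 105 FPKM in the mutant ASXL1 knockout clones and to between 72.3 and 77.5 FPKM in the parental clones. The part of these shifts in the members' differences was not tested.

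In the oxidative branch, PGLS had 45.4, 39.4 and 45.5 FPKM in the mutant ASXL1 knockout clones, against 60.2, 53.5 and 52.9 FPKM in the parental clones. Every knockout clone lay below every parental clone, by log2 -0.35 (SE 0.08, adjusted p = 0.0261). PGLS shares an exact run of 261 bases with AC010618.3, a clone-named gene at 1.66 to 3.82 FPKM here, so some of its fragments may be assigned to either. PGD had 163, 164 and 163 FPKM in the mutant ASXL1 knockout clones and 190.3, 186 and 178 FPKM in the parental clones. The knockout clones were tightly grouped and all lower, by log2 -0.17 (SE 0.04, adjusted p = 0.0321). PGD shares exact runs with PGDP1 over 19.8% of its longest transcript, and no FPKM was found under the symbol PGDP1. H6PD had 0.991, 1.00 and 1.19 FPKM in the mutant ASXL1 knockout clones, against 1.45, 1.06 and 0.856 FPKM in the parental clones. These groups overlapped, and the difference of -0.03 had a 95% interval from -0.40 to 0.33. H6PD shares exact runs with 133 other genes over 3.76% of its longest transcript.

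In the non-oxidative branch, TKT had 282, 288 and 285 FPKM in the mutant ASXL1 knockout clones and 332, 344 and 351 FPKM in the parental clones. The gap between the groups exceeded the range within each, and the difference was log2 -0.26 (SE 0.04, adjusted p = 0.00620). TALDO1, its partner in carbon exchange, had 327, 347 and 325 FPKM in the mutant ASXL1 knockout clones, against 346, 361 and 397 FPKM in the parental clones. Its groups overlapped by 1 knockout and 1 parental clone, and the difference of -0.14 did not pass (95% interval -0.28 to 0.00, adjusted p = 0.138). RPE had 40.5, 38.7 and 37.6 FPKM in the mutant ASXL1 knockout clones and 30.3, 35.4 and 31.0 FPKM in the parental clones. All 3 knockout clones were higher, by log2 0.27 (SE 0.07, adjusted p = 0.0433), and RPE was the only member called higher. Exact runs of at least 50 bases cover 53.7% of the longest RPE transcript and are shared with KANSL1L or the retrocopy RPEL1. KANSL1L was at 2.52 to 3.71 FPKM and RPEL1 was listed at 0 in every library. RPIA had 32.5, 35.9 and 32.1 FPKM in the mutant ASXL1 knockout clones and 31.9, 33.6 and 36.4 FPKM in the parental clones, with the groups interleaved (log2 -0.02, 95% interval -0.19 to 0.16).

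Neither PRPP synthetase gene passed in the mutant ASXL1 knockout. PRPS1 had 68.0, 75.5 and 67.6 FPKM in the knockout clones, against 64.1, 71.3 and 81.5 FPKM in the parental clones (log2 -0.03, 95% interval -0.26 to 0.19). PRPS2 had 25.5, 28.6 and 28.8 FPKM in the knockout clones, against 24.4, 28.5 and 34.0 FPKM in the parental clones (log2 -0.05, 95% interval -0.34 to 0.23). In both genes the parental clones spanned the knockout clones, and both intervals include a fall of the size called in PGD.

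TKT kept its call under all 12 alternatives tried (adjusted p 0.00639 to 0.0380), whereas PGLS lost it in 7, RPE in 8 and PGD in 9 of them. The 4 genes kept their direction under all 12. Without any 1 of the 3 knockout clones, or without parental replicate 1, TKT alone was called. Without parental replicate 2 TKT and RPE were called, and without parental replicate 3 TKT, PGD and PGLS. The calls here were 35.4% higher among 3039, and 51.0% higher with median-ratio scaling, under which PGD and PGLS were not called.

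**Figure D2:**
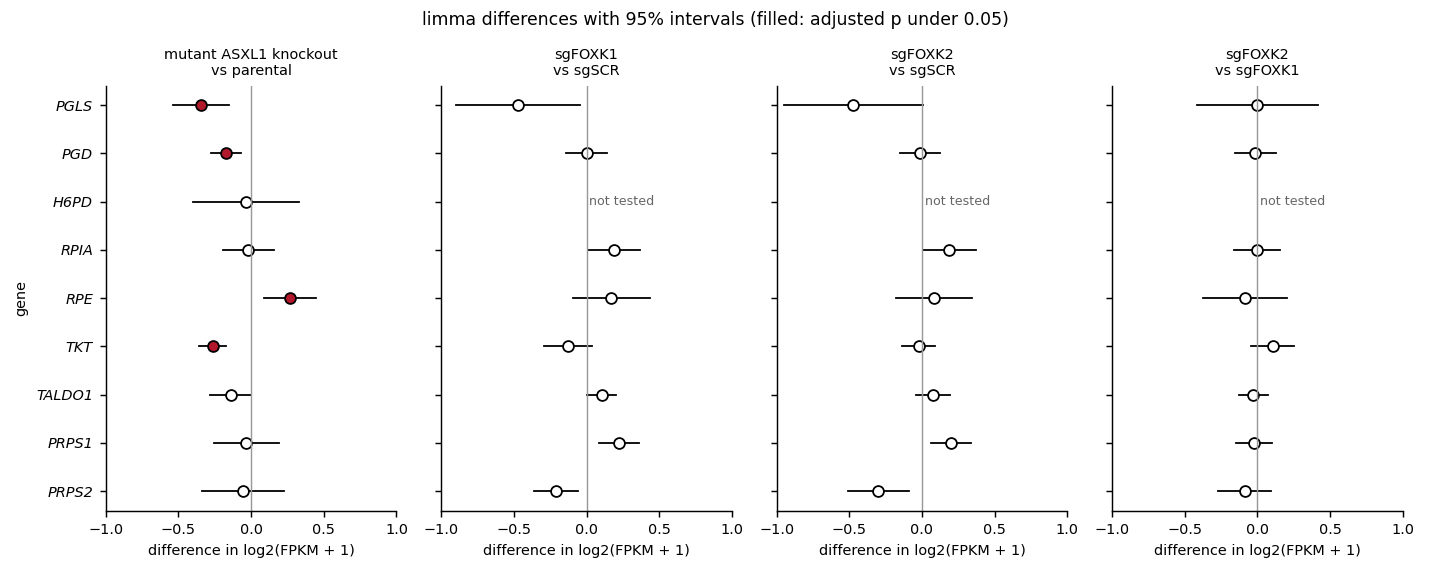
Difference in log2(FPKM + 1) for each gene (points, horizontal axes) with its 95% interval (lines) in 4 comparisons, filled where the adjusted p was under 0.05. Filled points stand at PGLS, PGD, TKT and RPE in the first comparison, and H6PD was not tested in the other 3.

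The sgFOXK1 pools were compared with the sgSCR pools to ask which transcripts follow FOXK1. None of the 8 tested members was called by limma (5 had an unadjusted p under 0.05), in a comparison that called 250 of 13697 genes (1.83%), 0.679% higher and 1.15% lower. An unadjusted p under 0.05 was found in 22.9% of all tested genes, and groups did not overlap in 54.9%, so the 7 of 8 members without overlap are to be read against that share. The median difference was 0.05 over the members and 0.02 over all tested genes. The erythroid markers summed to 22758 to 23669 FPKM in the sgFOXK1 pools and 20834 to 23280 in the sgFOXK2 pools, against 13465 to 14211 in the sgSCR pools. Of the 8 markers, HBG1, HBG2 and HBE1 were called higher in the sgFOXK1 pools, 0 were called in the sgFOXK2 pools (3 had an unadjusted p under 0.05), and their part in the members' differences was not tested.

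The member with the largest relative change in mean FPKM was H6PD, the enzyme of the endoplasmic reticulum. It had 0.388 and 0.456 FPKM in the sgFOXK1 pools and 0.589 and 0.588 FPKM in the sgFOXK2 pools, against 1.08 and 0.965 FPKM in the sgSCR pools. All 4 FOXK pools lay below both sgSCR pools and below all 6 clones. Because only 1 of the sgSCR pools reached 1 FPKM, H6PD did not meet the filter on low values and was not tested in either comparison. With no filter its difference was log2 -0.51 (adjusted p = 0.213) in the sgFOXK1 pools and -0.35 (adjusted p = 0.360) in the sgFOXK2 pools, and adding 1 shrinks the change of a transcript this low. In the authors' deposited table the log2 fold change of H6PD is -1.21 for FOXK1 (adjusted p = 6.39e-08) and -0.76 for FOXK2 (adjusted p = 0.000422). H6PD was thus called in the authors' deposited table and not by limma here.

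In the rest of the oxidative branch, PGLS had 49.4 and 47.0 FPKM in the sgFOXK1 pools and 43.6 and 53.1 FPKM in the sgFOXK2 pools, against 57.1 and 79.0 FPKM in the sgSCR pools. The sgSCR pools stood further apart than the FOXK pools lay below the lower of them. The differences were log2 -0.47 with a 95% interval from -0.90 to -0.04 for sgFOXK1 (adjusted p = 0.188) and -0.47 with one from -0.95 to 0.01 for sgFOXK2 (adjusted p = 0.247). Both were -0.24 without sgSCR replicate 2 and -0.70 without sgSCR replicate 1. PGD had 179 and 194 FPKM in the sgFOXK1 pools and 179.7 and 189.9 FPKM in the sgFOXK2 pools, against 188 and 185 FPKM in the sgSCR pools. The FOXK pools lay on both sides of the sgSCR pools, and the intervals ran from -0.14 to 0.14 for sgFOXK1 and from -0.15 to 0.12 for sgFOXK2.

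In the non-oxidative branch, RPIA had 45.9 and 44.4 FPKM in the sgFOXK1 pools and 44.9 and 45.2 FPKM in the sgFOXK2 pools, against 37.6 and 41.3 FPKM in the sgSCR pools. All 4 FOXK pools were higher, but the differences of 0.19 in each did not pass (adjusted p = 0.195 for sgFOXK1 and 0.233 for sgFOXK2). RPE had 38.9 and 32.5 FPKM in the sgFOXK1 pools and 30.6 and 36.5 FPKM in the sgFOXK2 pools, against 30.9 and 32.0 FPKM in the sgSCR pools. Within each FOXK guide 1 pool was close to the sgSCR pools and the other higher. TKT had 258 and 286 FPKM in the sgFOXK1 pools and 294 and 291 FPKM in the sgFOXK2 pools, against 295 and 299 FPKM in the sgSCR pools. The lowest TKT value of all 12 libraries was that of sgFOXK1 replicate 1, and the interval ran from -0.29 to 0.03 for sgFOXK1. TALDO1 had 341 and 350.1 FPKM in the sgFOXK1 pools and 337 and 341 FPKM in the sgFOXK2 pools, against 323 and 319.8 FPKM in the sgSCR pools. Its differences of 0.10 and 0.08 did not pass (adjusted p = 0.210 for sgFOXK1 and 0.388 for sgFOXK2).

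The 2 PRPP synthetase genes lay on opposite sides of the sgSCR pools. PRPS1 had 77.7 and 80.8 FPKM in the sgFOXK1 pools and 78.2 and 77.8 FPKM in the sgFOXK2 pools, against 69.2 and 66.3 FPKM in the sgSCR pools. PRPS2 had 24.8 and 25.1 FPKM in the sgFOXK1 pools and 22.1 and 24.7 FPKM in the sgFOXK2 pools, against 28.5 and 29.5 FPKM in the sgSCR pools. All 4 FOXK pools were above the sgSCR pools for PRPS1 and below them for PRPS2. In the sgFOXK1 pools the differences were log2 0.22 for PRPS1 (SE 0.05, adjusted p = 0.106) and -0.21 for PRPS2 (SE 0.06, adjusted p = 0.135). In the sgFOXK2 pools they were 0.20 for PRPS1 (SE 0.05, adjusted p = 0.156) and -0.30 for PRPS2 (SE 0.08, adjusted p = 0.157). None of these passed, and both comparisons share the sgSCR pools, so they are not independent of each other.

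The ratio of PRPS1 to PRPS2 within a library does not depend on how the library was scaled. It was 3.14 and 3.22 in the sgFOXK1 pools and 3.54 and 3.15 in the sgFOXK2 pools, against 2.42 and 2.25 in the sgSCR pools. It was 2.67, 2.64 and 2.35 in the mutant ASXL1 knockout clones and 2.62, 2.50 and 2.40 in the parental clones. The 4 FOXK pools thus lay above the other 8 libraries. The mean log2 ratio differed by 0.45 between the sgFOXK1 and sgSCR pools and by 0.52 between the sgFOXK2 and sgSCR pools, each with a two-sided exact permutation p of 0.333, the smallest that 2 pools against 2 allow. Between the mutant ASXL1 knockout and parental clones it differed by 0.02 (exact permutation p = 0.8, n = 3 each). PRPS1 shares exact runs with the testis copy PRPS1L1 and the pseudogene PRPS1P2 over 12.7% of its longest transcript, and PRPS1P2 was at 0.551 to 1.61 FPKM.

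The ratio of TKT to TALDO1 compared the carbon-exchanging enzymes in the same way. It was 0.862, 0.828 and 0.878 in the mutant ASXL1 knockout clones and 0.960, 0.955 and 0.884 in the parental clones. The knockout clones were all lower, with a difference in mean log2 ratio of -0.12 (two-sided exact permutation p = 0.1, the smallest that 3 against 3 allow). It was 0.758 and 0.818 in the sgFOXK1 pools and 0.873 and 0.853 in the sgFOXK2 pools, against 0.914 and 0.936 in the sgSCR pools. The differences were -0.23 for sgFOXK1 and -0.10 for sgFOXK2 (exact permutation p = 0.333 each).

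**Figure D3:**
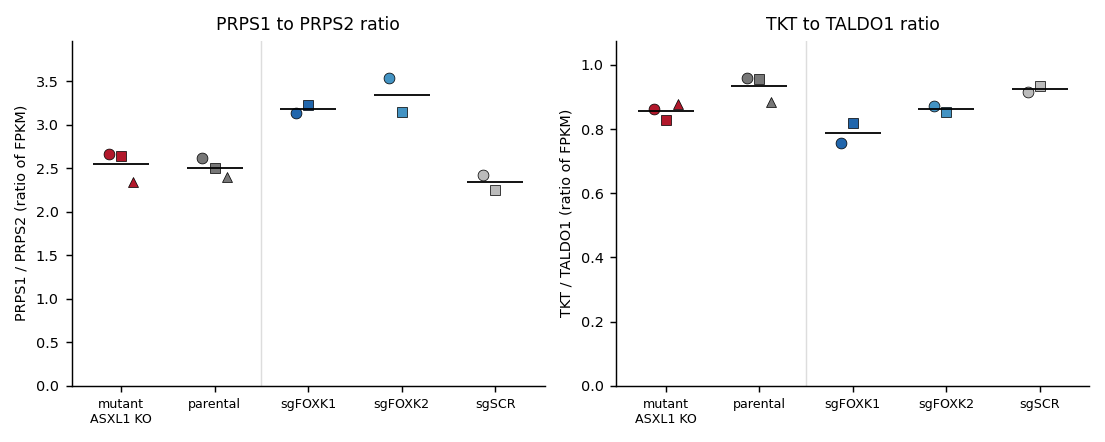
Ratio of FPKM of PRPS1 to PRPS2 (left) and of TKT to TALDO1 (right) in each library (vertical axes, from 0), with group means as lines and circles, squares and triangles for replicates 1, 2 and 3. The 4 FOXK pools hold PRPS1 to PRPS2 ratios of 3.14 to 3.54, and the sgSCR pools 2.25 and 2.42.

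The sgFOXK2 pools were compared with the sgSCR pools in the same manner for FOXK2. None of the 8 tested members was called by limma (3 had an unadjusted p under 0.05), where 139 of 13672 genes (1.02%) were called, 0.146% higher and 0.87% lower, 20.7% had an unadjusted p under 0.05 and groups did not overlap in 54% of genes. The groups did not overlap for 6 of the 8 members. The median difference was 0.03 over the members and 0.01 over all tested genes. RPE differed by 0.08 (95% interval -0.18 to 0.35) and TKT by -0.02 (-0.14 to 0.09).

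The sgFOXK2 pools were also set against the sgFOXK1 pools in a joint fit of all 6 pools. None of the 8 tested members was called by limma, and 0 had an unadjusted p under 0.05, where 5 of 13603 genes (0.0368%) were called, 0.00735% higher and 0.0294% lower, and 6.59% had an unadjusted p under 0.05. TKT was nominally higher in the sgFOXK2 pools, by 0.10 (95% interval -0.04 to 0.25), and its groups did not overlap, as in 36.9% of all tested genes. H6PD, not tested there, differed by 0.16 with no filter (adjusted p = 0.817). PRPS2 differed by -0.09 (95% interval -0.27 to 0.09). The widest interval was that of PGLS, from -0.42 to 0.42, so a difference of the size seen against the sgSCR pools lay just outside it.

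The clones and the pools were deposited in separate tables, and their levels are given side by side without a test. RPIA had 31.9 to 36.4 FPKM in the 6 clones and 37.6 to 45.9 FPKM in the 6 pools, without overlap. TKT ran from 282 to 351 FPKM in the clones and from 258 to 299 FPKM in the pools, so the TKT level of the mutant ASXL1 knockout clones was within the range of the pools. PGD ran from 163 to 190.3 FPKM in the clones and from 179 to 194 FPKM in the pools, and the 3 knockout clones lay below all pools. Whether a gap reflects clonal isolation, the guide vectors or a batch cannot be told apart.

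The authors' deposited table rests on their own test and calls more members. For the mutant ASXL1 knockout it lists 5 of the 9 with an adjusted p under 0.05, among them the 4 called here, where 33.1% of the tested genes have one. The fifth was PRPS2, at -0.39 on the log2 scale (adjusted p = 0.000978) in the authors' deposited table, against -0.05 from the FPKM. How the authors' test values and the FPKM relate is not given in the sources used here. For FOXK1 the authors' deposited table lists 4 members, H6PD and PGLS lower and PRPS1 and RPE higher, where 19.8% of the tested genes are listed. For FOXK2 the authors' deposited table lists H6PD and PGLS lower and PRPS1 and RPE higher, where 17.7% of the tested genes are listed. H6PD was not among the tested genes in either FOXK comparison, so these shares do not cover it. Both comparisons share their control pools. PGLS was at -0.55 for FOXK1 (adjusted p = 0.000476) and -0.53 for FOXK2 (adjusted p = 0.00263) in the authors' deposited table. PRPS1 was at 0.20 for FOXK1 (adjusted p = 0.00490) and 0.19 for FOXK2 (adjusted p = 0.0316) there. RPE was at 0.23 for FOXK1 (adjusted p = 0.00792) and 0.25 for FOXK2 (adjusted p = 0.00906) there. None of these members was called by limma on the FPKM of 2 pools against 2. PRPS2 was at -0.09 for FOXK1 and -0.10 for FOXK2 in the authors' deposited table and was not listed as passing.

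**Figure D4:**
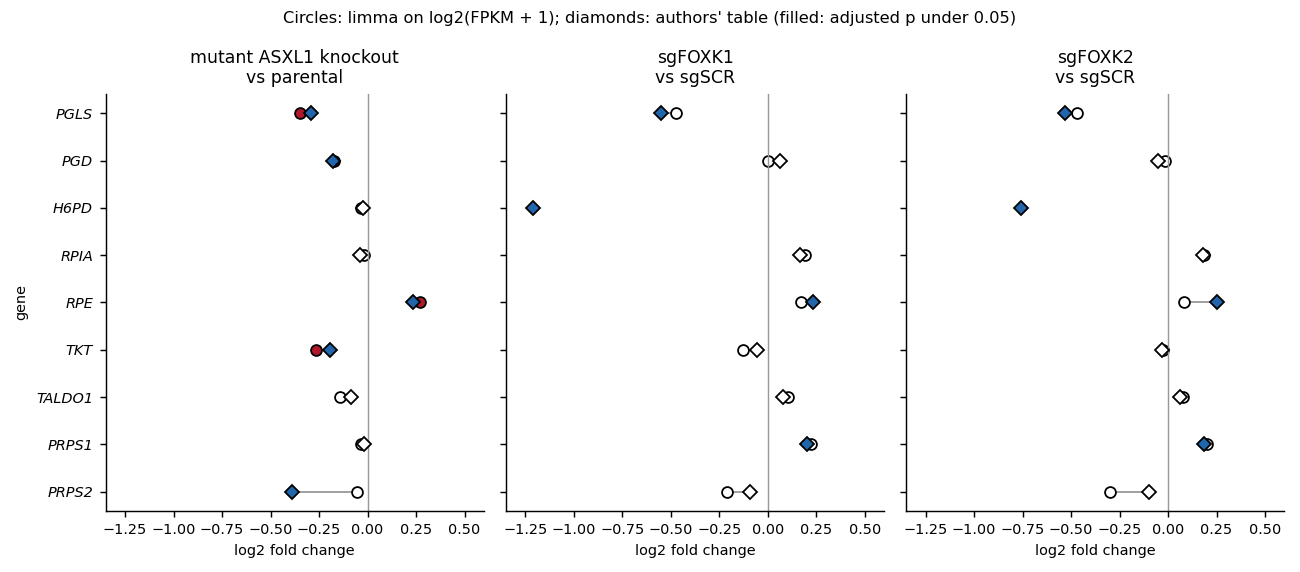
Log2 fold change of each gene from limma on log2(FPKM + 1) (circles) and from the authors' deposited table (diamonds), joined by a line and filled where the adjusted p was under 0.05. PRPS2 shows the widest gap in the mutant ASXL1 knockout, -0.05 against -0.39, and H6PD has only the authors' value in the FOXK comparisons.

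Of 14 other genes around the pathway, 7 reached the filter in the mutant ASXL1 knockout comparison, and 0 were called higher or lower, beside 22.4% of all tested genes. The median difference of these 7 was -0.02, and 0 had an unadjusted p under 0.05 in limma, beside 37.7% of all tested genes. The genes named next were chosen after their values were seen. PRPSAP1, which encodes a regulatory partner of PRPP synthetase, was at 28.0 ± 2.69 FPKM in the knockout clones and 30.7 ± 3.07 in the parental clones (SD, n = 3 each). PRPSAP2, the other regulatory partner, had 43.7, 23.1 and 23.3 FPKM in the knockout clones and 19.6, 22.6 and 23.6 FPKM in the parental clones, so its difference of 0.38 (adjusted p = 0.292) rested on 1 knockout clone. IDNK, a gluconate kinase gene near the limit of the filter, had 1.01, 1.13 and 1.45 FPKM in the knockout clones and 0.258, 1.06 and 0.815 FPKM in the parental clones. It met the filter only through the knockout clones, so these values are given as a description. PGM2, which moves ribose phosphate between positions, was at 27.9 ± 2.26 FPKM in the knockout clones and 28.3 ± 0.617 in the parental clones. The transketolase-like genes TKTL1 and TKTL2 did not reach the filter, and the lactonase gene RGN was listed at 0 in every library. In each FOXK comparison 6 of the 14 were tested and limma called 0, beside 1.83% of all genes for sgFOXK1 and 1.02% for sgFOXK2. At an unadjusted p under 0.05 there were 0 of the 6 in each, beside 22.9% and 20.7% of all tested genes.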

How the data were processed

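RNA sequencing of total RNA was analysed in 12 K562 libraries, grouped by the labels. The values were FPKM as deposited by the authors, per the file headers. The submitters' processing notes name GRCh38.p10, TopHat, Bowtie, RSEM, edgeR and Cufflinks, and their versions and roles are not given in the sources used here. The authors also deposited fold changes (a ratio), log2 fold changes and the p-value of each, raw and adjusted, per the file headers, and these are quoted only as theirs. The sgSCR values were identical in both FOXK tables (0 differences).

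Under 1 FPKM, 99.4% to 100% of values above 0 lay on 1 step per library, within 0.00051 FPKM. The step was from 0.0095 to 0.0104 FPKM and common to genes of all lengths. It ran from 0.009504 to 0.009566 FPKM in the mutant ASXL1 knockout clones and from 0.009915 to 0.010317 FPKM in the parental clones. The 5th percentile of values above 0 was 0.132 to 0.699 FPKM in the shortest 10% of genes and 0.019 to 0.031 in the longest 10%. The step was therefore not read as 1 fragment, no counts were recovered, and the count tests considered as alternatives were not run.

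FPKM plus a pseudocount of 1 was log2-transformed. The fit used limma 3.58.1 (R 4.3.3) with its variance trend, each knockout with its own control. Genes entered a fit if 1 FPKM was reached in no fewer libraries than the smaller group has. The fits were also run on simulated data with independent noise for each gene and no scaling difference between libraries. That run is not used to back the calls made here. Replicate numbers were checked as pairs: deviations of same-numbered libraries had correlations from -0.13 to 0.09, and they were not used as pairs. Named genes were the 9 members, the targets, the called genes of 3 lists with the smallest adjusted p, and the 2 genes most correlated with each called member. A few further list genes, among them PRPSAP1, PRPSAP2, IDNK, PGM2, TKTL1, TKTL2, RGN, ATIC and QPRT, were named after their values were seen. So were the list genes quoted only from the authors' deposited table. The members and lists were chosen with earlier results of these data known. Shared sequence was found with BLAST 2.17.0 as exact runs of at least 50 bases in GENCODE 29 transcripts. Promoters are RefSeq (GRCh38.p14), and all 9 members matched by symbol, with the first listed start taken for each. Python 3.11.15 and matplotlib 3.10.9 prepared tables and figures. Alternatives were a pseudocount of 0.1, no filter, median-ratio and upper-quartile scaling, no trend, a replicate block and leaving out each library. Some genes of the lists are not reported here by name.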

Additional observations from a re-analysis of the deposited data

How the results depend on the processing

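TKT in the mutant ASXL1 knockout kept its direction and its call under all 12 alternatives. The count of called members, 4, was 2 with no filter, with median-ratio scaling, with no variance trend and with a replicate block, and 1 to 3 without each library in turn. With the replicate block TKT and PGLS were called. The count of called genes, 3039, was 1947 with no filter, 1824 with a replicate block, and 1287 to 2699 without each library. The largest losses came without mutant ASXL1 knockout replicate 1 (1315), mutant ASXL1 knockout replicate 3 (1287) and parental replicate 2 (1445).

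For sgFOXK1 against sgSCR, 250 called genes became 10 with no filter, 69 with no variance trend and 37 with a replicate block. For sgFOXK2 against sgSCR, 139 became 0 with no filter, 52 with no variance trend and 39 with a replicate block. Both were 0 without any 1 pool. For sgFOXK2 against sgFOXK1, 5 became 3 with no filter, 14 with no variance trend, 2 with a replicate block, and 2 to 11 without each pool. Members called stayed at 0 in these 3 comparisons under every alternative run. The numbers pair no samples by the labels, and not every clone correlated best with its own number.

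The differences that changed sign had not passed in the comparison concerned. In the mutant ASXL1 knockout, with median-ratio scaling, RPIA became 0.041, PRPS1 0.028 and PRPS2 0.0048, and with upper-quartile scaling RPIA became 0.018 and PRPS1 0.0045. PGD in sgFOXK1 became -0.021 with median-ratio scaling. Between sgFOXK2 and sgFOXK1, both scalings gave 0.013 for PGLS and 0.011 for RPIA. Without each library in turn, the ranges of results that changed sign ran, in the mutant ASXL1 knockout, from -0.068 to 0.031 for RPIA, -0.17 to 0.063 for PRPS2, -0.12 to 0.076 for H6PD and -0.12 to 0.056 for PRPS1. They ran from -0.056 to 0.058 for PGD and -0.057 to 0.032 for FOXK2 in sgFOXK1, and from -0.053 to 0.027 for PGD and -0.038 to 0.21 for RPE in sgFOXK2. Between sgFOXK2 and sgFOXK1 they ran from -0.14 to 0.14 for PGLS, -0.025 to 0.020 for RPIA, -0.21 to 0.040 for RPE, -0.071 to 0.043 for PGD, -0.050 to 0.0052 for PRPS1 and -0.24 to 0.27 for ASXL1.

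The edgeR and DESeq2 alternatives were not run, because whole reads were not recovered. The pools have 2 libraries a group, so small differences are not detectable, and FPKM carry no depth. The causes of these changes were not tested.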

Other observations

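A list of genes that consume PRPP or act later in purine synthesis split in the mutant ASXL1 knockout. Of its 12 genes 2 were higher and 3 lower, where 22.4% of tested genes were called. NAMPT, which starts the salvage of nicotinamide into NAD, was at 91.1 ± 3.50 FPKM in the knockout clones and 73.4 ± 2.82 in the parental clones (SD, n = 3 each, log2 0.31, limma adjusted p = 0.0104). APRT, the adenine salvage enzyme, was at 204 ± 2.12 FPKM in the knockout clones and 240.4 ± 11.96 in the parental clones (log2 -0.24, adjusted p = 0.0165). NAPRT, which uses nicotinic acid, was at 49.8 ± 5.09 FPKM in the knockout clones and 69.7 ± 8.12 in the parental clones (log2 -0.47, adjusted p = 0.0221). Also called, and named after their values were seen, were ATIC, of purine synthesis, at log2 -0.23, and QPRT, of NAD synthesis from tryptophan, at log2 0.23. Of 12 alternatives, NAMPT lost its call in 1, NAPRT in 4, APRT in 5, ATIC in 6 and QPRT in 8. The authors' deposited table also lists NAMPT, APRT and NAPRT with an adjusted p under 0.05, as it does 33.1% of the tested genes. It does not list ATIC (log2 -0.04, adjusted p = 0.662) or QPRT (log2 0.10, adjusted p = 0.359). PPAT, PFAS and UMPS are listed there as higher and were not called by limma. For sgFOXK1 limma called 0 of 12 with 3 at an unadjusted p under 0.05, beside 1.83% and 22.9% of all tested genes. For sgFOXK2 it called 0 of 12 with 2 at an unadjusted p under 0.05, beside 1.02% and 20.7% of all tested genes. For sgFOXK1 the authors' deposited table lists PPAT, PAICS, UMPS, HPRT1 and NAMPT higher and QPRT lower, beside 19.8% of the tested genes. For sgFOXK2 the authors' deposited table lists QPRT lower, beside 17.7% of the tested genes.

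Of 10 other genes that make NADPH or its precursor, 9 were tested in the mutant ASXL1 knockout comparison. Of these 1 was called higher and 2 lower, beside 22.4% of all tested genes. ALDH1L1, a folate dehydrogenase, was at 5.72 ± 0.217 FPKM in the mutant ASXL1 knockout clones and 1.56 ± 0.188 in the parental clones (log2 1.40, adjusted p = 0.000948). The mitochondrial isocitrate dehydrogenase gene IDH2 fell by 0.83 (adjusted p = 0.000922) and the NAD kinase gene NADK by 0.23 (adjusted p = 0.0434) on the log2 scale there. IDH2 had a mean of 26.2 FPKM in the knockout clones and 47.5 FPKM in the parental clones. Its means in the sgSCR, sgFOXK1 and sgFOXK2 pools were 28.5, 28.1 and 28.0 FPKM, so the knockout level was near that of the pools. ALDH1L1 had a mean of 1.34 FPKM in the sgSCR pools, near the parental level. ALDH1L1 and IDH2 kept their calls in all 12 alternatives, and NADK lost its call in 10 of them (adjusted p up to 0.139). The cytosolic isocitrate dehydrogenase gene IDH1 was at 41.1 ± 0.344 FPKM in the sgFOXK1 pools and 42.2 ± 1.29 in the sgFOXK2 pools, against 72.0 ± 3.04 in the sgSCR pools (SD, n = 2 each). The limma differences were -0.79 (adjusted p = 0.0183) for sgFOXK1 and -0.76 (adjusted p = 0.0249) for sgFOXK2. Each call was lost in 7 of 10 alternatives, among them every fit without 1 pool, with adjusted p up to 0.373 for sgFOXK1 and 0.437 for sgFOXK2, while the differences stayed between -0.83 and -0.71. The mitochondrial folate dehydrogenase gene ALDH1L2 had 0.511 and 0.384 FPKM in the sgFOXK1 pools and 0.609 and 0.619 FPKM in the sgFOXK2 pools, against 2.60 and 2.37 FPKM in the sgSCR pools. It met the filter only through the sgSCR pools, so these values are given as a description. Of the 9 tested genes of this list, limma called IDH1 and ALDH1L2 for sgFOXK1, beside 1.83% of all tested genes. ALDH1L2 entered that fit only through its level in the sgSCR pools, so its call is not read as a result. For sgFOXK2 limma called 1 of 9, IDH1, beside 1.02% of all tested genes.

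As a description over the 12 libraries, which share groups and scaling, the genes most alike in log2(FPKM + 1) were VARS (Pearson r = 0.969) and AKR1C1 (0.966) for TKT and GATA1 (0.963) and EHMT2 (0.963) for PGD. They were TCAM1P (0.950) and TOR2A (0.929) for PGLS, and NXN (0.917) and RPL21 (0.869) for RPE. Genes with LINC, MIR, antisense or clone-based names were left out.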
